A study of Mus musculus with 8 samples.

Results

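Immunoglobulin light chains are built from a variable (V) gene, a joining (J) segment and a constant gene, and this account follows which light V gene each B cell and plasma cell used in leukocytes from liver metastases. The feature table held 163 genes whose symbols begin with Igkv or Iglv, and the 111 with at least 10 UMIs (unique molecular identifiers, one per captured transcript) over the 4 matrices were followed, 108 of them kappa (Igkv) and 3 lambda (Iglv). The annotation called 101 of them functional V genes and 10 pseudogenes. The least abundant of the 111, Igkv2-107, had 12 UMIs, the next feature below it had 5, and 39 features had none. In 8216 B-gate cells (at least 1 UMI each of Cd79a and Ms4a1) and 174 plasma-gate cells (at least 5 UMIs of Jchain and 2 of Xbp1) among 46574 cells, the gene with most light V UMIs was taken as the top gene of the cell. A cell was assigned when that gene had at least 2 UMIs and led alone, which left 8111 B-gate and 174 plasma-gate cells.

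The groups were 2 Vav1CreTet2KO mice (Tet2 knockout, KO) and 2 Tet2fl/fl mice (control). Both carry loxP-flanked Tet2. Vav1-driven Cre acts in blood-forming cells and their progeny, so that B cells are themselves among the cells targeted. All 4 mice had received Venus-AKTPM/LOH colorectal cancer cells into the spleen, and the tumours were taken at day 30. Live CD45+ leukocytes, stained for CD45.2, were sorted and put through 10x 5' gene expression libraries aimed at 10000 cells each. Age and sex were not given in the sources used here. The labels number the mice as biological replicates.

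A developing B cell joins 1 V gene to 1 J segment by cutting at recombination signal sequences, and it normally keeps 1 productive light chain. Kappa genes are tried first, and lambda genes are joined mostly in cells whose kappa joins failed, which makes lambda cells few in mice. Most B cells are follicular cells with varied receptors, whereas B1 cells, self-renewing cells enriched in body cavities, carry recurrent receptors made early in life. A known B1 receptor against phosphatidylcholine pairs Ighv11-2 with Igkv14-126, and a second pairs Ighv12-3 with Igkv4-91. Plasma cells are the antibody-secreting progeny and hold far more light chain transcript per cell. Because a 5' library reads the start of a transcript, the V gene is the sequenced end of a light chain message.

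The recombination signals of the genes on which the results turn were read from GRCm39. Each begins at the base after the annotated V gene, and each kappa signal has a 12-base spacer and each lambda signal a 23-base spacer. Capitals mark the heptamer at the start and the nonamer at the end, and all are written 5' to 3' on the strand of the gene:
Igkv14-126: CACGTTGatacaagtaataACATAAACC
Igkv4-91: CACCGTGctacagactaaaACAAGAACC
Igkv10-96: CACAATGatataagtcataACATAAACC
Igkv1-117: CACAGTGatacagaccctaACAAAAATA
Igkv1-135: CACAGTGattcagacccgaACAAAAACT
Igkv6-32: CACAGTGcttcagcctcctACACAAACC
Igkv12-89: CACAGTGattcaagccatgACATAAATC
Iglv1: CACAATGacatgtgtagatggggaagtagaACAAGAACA
Iglv2: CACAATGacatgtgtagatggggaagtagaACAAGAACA
Iglv3: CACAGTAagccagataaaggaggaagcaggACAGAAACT

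Igkv14-126 lies at chr6:67873156-67873626 on the plus strand with its signal at chr6:67873627-67873654, Igkv4-91 at chr6:68745539-68746087 on the minus strand, and Igkv10-96 at chr6:68608947-68609426 on the minus strand. Igkv1-117 lies at chr6:68098030-68098811 and Igkv1-135 at chr6:67586697-67587492, both on the plus strand, and Igkv6-32 at chr6:70051008-70051587 and Igkv12-89 at chr6:68811830-68812291, both on the minus strand. The lambda genes lie on the minus strand at chr16:18903767-18904250 (Iglv1), chr16:19059957-19060440 (Iglv3) and chr16:19079151-19079609 (Iglv2). Of 108 kappa genes, 93 carry the heptamer CACAGTG. Counting heptamer positions from 1 at the V gene, Igkv14-126 differs from it by A4G and G5T, Igkv4-91 by A4C and Igkv10-96 by G5A, so that both kappa genes of the phosphatidylcholine receptors have another heptamer. Iglv1 and Iglv2 have the same signal letter for letter, and Iglv3 differs from both in heptamer, spacer and nonamer.

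The 4 matrices held 57190926 and 60456627 UMIs in KO mice, against 89945864 and 91789597 in control mice, and cells of the quality filter without called doublets numbered 10519 and 11078 in KO mice and 11872 and 13105 in control mice. Tet2 was counted at 37.7 and 32.4 CPM (counts scaled to a library total of 1e+06) over all cells in KO mice and at 66.1 and 65.5 in control mice, and within the B gate at 31.6 and 29.3 in KO mice against 47.3 and 29.1 in control mice, where the groups overlapped. These counts are per gene and do not show which exons were read. The B gate held 30.9% and 35.6% of cells in KO mice, against 4.19% and 4.01% in control mice. Usage was therefore set by 3217 and 3894 assigned cells per KO mouse, and by only 485 and 515 per control mouse. Median depth was 3302 and 3092 UMIs per B-gate cell in KO mice and 2553 and 2751 in control mice. Libraries shared 2.32% to 2.67% of barcodes pair by pair, 32 shared barcodes were assigned B-gate cells in more than 1 mouse, and 2 of these had the same top gene.

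The gates carried their markers. Cd79b, a chain of the B cell receptor complex, was at 999 and 911 CPM in B-gate cells of KO mice and at 576 and 1140 in control mice. Pax5, the B lineage transcription factor, was at 141 and 137 in KO mice and at 109 and 149.7 in control mice. All 6 plasma markers (such as Sdc1, Prdm1 and Mzb1) had UMIs in the plasma gate of all mice, at 3497 and 4108 in KO mice and 5929 and 5546 in control mice. RNA of other cells differed between the groups: the 5 macrophage markers summed to 1286 and 1339 CPM in B-gate cells of KO mice, against 5279 and 3355 in control mice, with none at 0. The 4 neutrophil markers summed to 279 and 264 in KO mice, against 542 and 2303 in control mice. Their part in the usage results was not tested, but leaving out B-gate cells with a UMI of Cd3e, Csf1r, S100a8 or Nkg7 is among the alternatives given with the results.

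Nearly every B-gate cell had light V transcripts. At least 1 light V UMI was found in 99.9% and 99.8% of B-gate cells in KO mice and in 99.4% and 99.6% in control mice. The top gene held a median of 26 and 25 UMIs in KO mice and 18 in either control mouse, and its median share of the cell's light V UMIs was 98.0% and 100% in KO mice and 100% in both control mice (exact two-sided permutation p = 1 over mice). Cells with no second light V gene made up 46.5% and 50.3% in KO mice and 52.6% and 53.0% in control mice. With cells thinned to 1000 UMIs, 2934 and 3548 cells were still assigned in KO mice and 404 and 450 in control mice. Of the cells still assigned, 97.0% and 96.8% in KO mice and 98.0% and 97.8% in control mice had the same top gene as before.

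B-gate cells used a broad set with no dominant gene. The top genes included 102 of the 111, with 93 and 99 seen in KO mice and 79 and 73 in control mice, where fewer cells were assigned, and 69 seen in all 4. Igkv1-117 led by mean share, with 4.97% and 4.90% of assigned cells in KO mice against 5.77% and 4.08% in control mice. Igkv1-135 had 4.51% and 4.06% in KO mice against 5.98% and 4.85% in control mice. Igkv10-96 had 5.97% and 4.88% in KO mice against 2.89% and 5.44% in control mice, where control mouse 1 was lowest and the groups overlapped.

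Iglv1, the most used lambda gene, came next by mean share, with 3.48% and 2.65% in KO mice against 3.92% and 5.83% in control mice. Igkv1-110 followed at 4.13% and 3.90% in KO mice against 3.09% and 3.11% in control mice, and Igkv6-17 at 3.30% and 2.93% in KO mice against 3.30% and 3.50% in control mice. The rest of the 15 leading genes, namely Igkv19-93, Igkv14-111, Igkv6-15, Igkv9-120, Igkv12-44, Igkv6-23, Igkv12-46, Igkv4-59 and Iglv2, averaged 1.29% to 2.55% in KO mice and 1.80% to 3.01% in control mice. Together the 15 held 46.3% and 43.1% of assigned cells in KO mice and 46.8% and 48.5% in control mice. Pseudogenes were top gene in only 14 of 8111 cells.

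**Figure D1:**
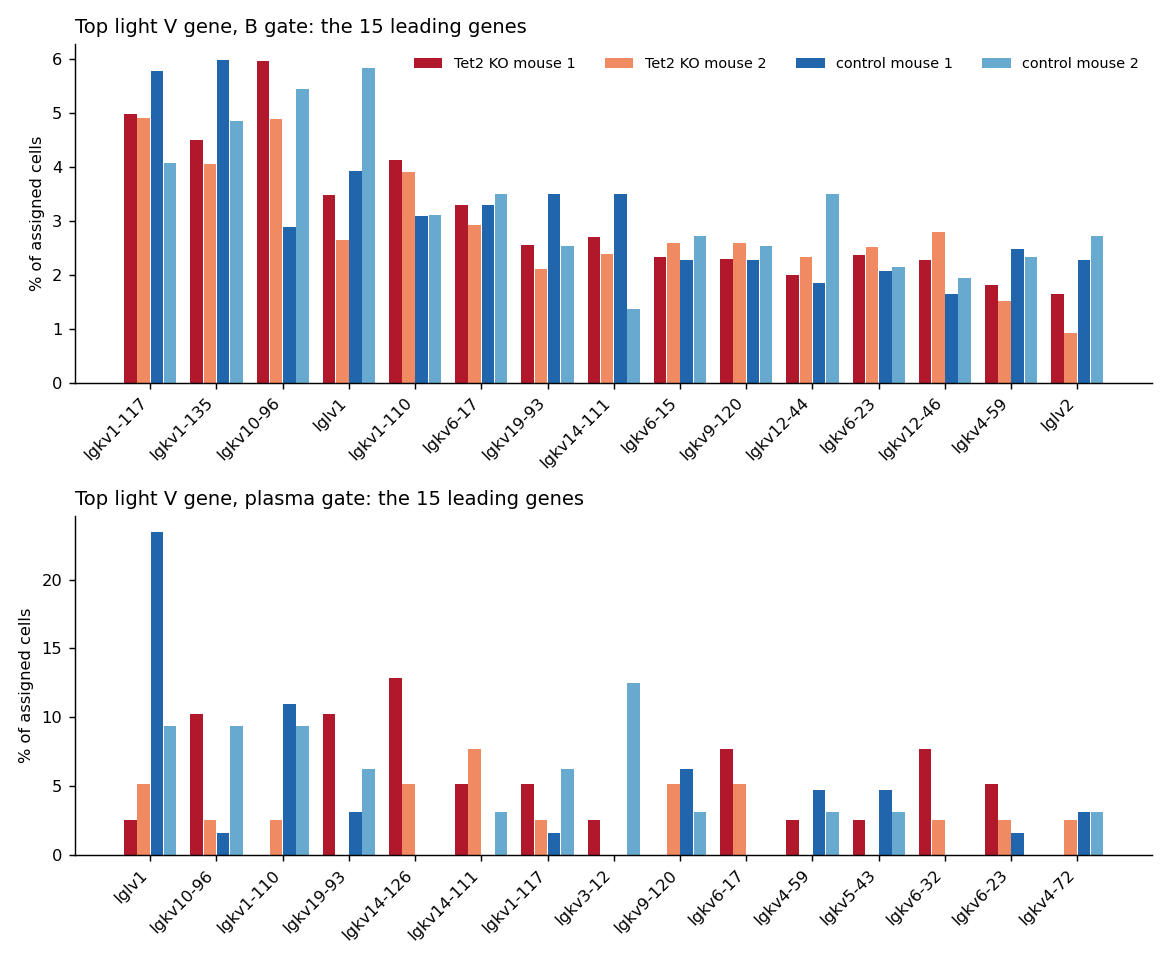
Share of assigned cells (percent, vertical axis) of the 15 light V genes with the highest mean share in the B gate (top) and the plasma gate (bottom), with a bar per mouse. In the B gate no gene passes 6% in any mouse, while in the plasma gate Iglv1 reaches 23.4% in control mouse 1 and Igkv14-126 reaches 12.8% in KO mouse 1.

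The breadth of the B-gate set did not separate the genotypes. The effective number of genes (the inverse of the chance that a pair of cells share a gene) was 44.0 and 48.6 in KO mice against 46.7 and 44.1 in control mice (exact two-sided permutation p = 1, where 0.33 is the smallest possible with 2 mice against 2). In 100 assigned cells, 47.1 and 48.8 different genes are expected in KO mice, against 48.6 and 46.6 in control mice, again overlapping (exact permutation p = 0.667). Across the 111 genes the shares of KO mouse 1 and KO mouse 2 had a Pearson correlation of 0.968, pairs of a KO and a control mouse 0.876 to 0.891, and the control mice 0.873, as a description over genes that are not independent. Corrected for cell number, the Morisita overlap was 0.992 for the pair of KO mice, 0.967 to 0.977 for mixed pairs and 1.00 for the pair of control mice.

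Between the genotypes, no single light V gene of the B gate passed the test. Of 78 genes with at least 10 cells, edgeR's quasi-likelihood test and DESeq2 each called 0 (0% of those tested) at a Benjamini-Hochberg adjusted p of 0.05, 3 had an unadjusted p under 0.05 with edgeR, and the median edgeR log2 change was 0.19. Shares did not overlap between the groups for 23 genes higher in KO mice (29.5% of those tested) and 15 lower (19.2%). The minimum of 10 cells was taken over all mice, with 3217 and 3894 assigned cells in KO mice against 485 and 515 in control mice. Rare genes therefore passed it mainly through KO cells, among them 3 with no cell in either control mouse. This favours genes higher in KO mice, so neither these counts nor the median change is read as a shift of the set. The 3 genes with the smallest p were Iglv3, Igkv14-126 and Igkv6-32. The call depended on the setting: 0 to 3 genes were called over 19 alternatives, and these were drawn from Igkv14-126, Iglv3, Iglv2, Igkv6-32 and Igkv5-43.

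Iglv3, the least used lambda gene, was top gene in 11 and 21 cells of KO mice (0.342% and 0.539%), against 7 and 10 cells of control mice (1.44% and 1.94%). Both KO mice lay below both control mice. B-gate cells with any Iglv3 UMI ran the other way, at 12.7% and 10.8% in KO mice against 9.84% and 9.70% in control mice. The log2 change in top-gene cells was -1.91 ± 0.37 (SE, n = 2 mice each; edgeR adjusted p = 0.216). Under the alternatives it ran from -2.30 to -1.58, with an adjusted p of 0.000798 to 0.515, and 7 of 19 called it.

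Igkv14-126 was top gene in 97 and 74 cells of KO mice (3.02% and 1.90%), against 2 and 2 cells of control mice (0.412% and 0.388%). Its log2 change was 2.58 ± 0.62 (SE, n = 2 mice each; edgeR adjusted p = 0.279), the largest among genes with cells in all 4 mice. Under the alternatives it ran from 0.51 to 2.89, with an adjusted p of 2.59e-06 to 0.954, and 8 of 19 called it. With cells of the same light and heavy V gene counted once per mouse the log2 change was 0.52.

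Igkv6-32 was top gene in 53 and 94 cells of KO mice (1.65% and 2.41%) and in 5 and 4 cells of control mice (1.03% and 0.777%), with a log2 change of 1.18 ± 0.43 (SE; edgeR adjusted p = 0.589). Igkv11-125 (7 and 6 cells), Igkv12-38 (5 and 6 cells) and Igkv9-129 (3 and 8 cells) were the tested genes with no cell in either control mouse. With 485 and 515 assigned cells, a count of 0 in a control mouse allows a share of up to 0.619% and 0.583%, so these differences were not detectable at this depth.

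**Figure D2:**
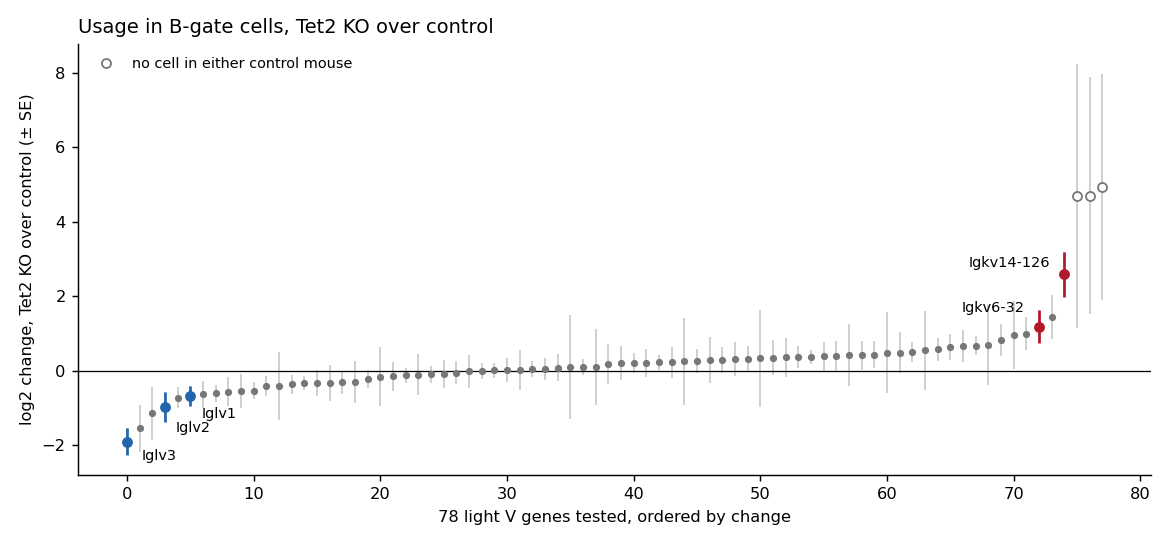
Log2 change in the share of assigned B-gate cells, Tet2 KO over control, with its standard error (vertical axis), for the 78 light V genes tested, ordered by change along the horizontal axis. Iglv3 sits lowest at -1.91 and Igkv14-126 at 2.58, and the 3 open points are genes with no cell in either control mouse, whose fitted change is no bound.

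The 3 lambda genes together had a lower share in both KO mice than in both control mice. Lambda genes were top gene in 5.47% and 4.11% of assigned B-gate cells in KO mice and in 7.63% and 10.5% in control mice, a mean of 4.79% ± 0.96 in KO mice against 9.06% ± 2.02 in control mice (SD, n = 2 each; exact two-sided permutation p = 0.333, the smallest this design gives). The difference ran from -5.70 to -2.84 percentage points over the alternatives. Iglv2 had 53 and 36 cells in KO mice (1.65% and 0.924%) against 11 and 14 in control mice (2.27% and 2.72%), with a log2 change of -0.98 ± 0.41 (SE; edgeR adjusted p = 0.589), and Iglv1 changed by -0.68 ± 0.27 (adjusted p = 0.589). None of the 3 passed the test by itself. Free Iglv1 RNA was most frequent in control mouse 1. Iglv1 had a UMI in 0.0411% and 0.211% of T-gate cells (Cd3e without Cd79a, Ms4a1 or Jchain) in KO mice, against 1.23% and 0.189% in control mice. In macrophage-gate cells it had one in 0.157% and 0.273% in KO mice, against 1.12% and 0.318% in control mice. In B-gate cells any Iglv1 UMI was found in 10.0% and 8.20% in KO mice, against 11.6% and 13.7% in control mice, above its top-gene shares. In plasma-gate cells it was found in 87.2% and 66.7% in KO mice, against 96.9% and 96.9% in control mice. The part of free Iglv1 RNA in the lambda shares was not tested.

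Constant genes were read beside the V genes. Igkc, the kappa constant gene, had a UMI in 88.4% and 89.5% of Igkv cells of KO mice and in 86.8% and 86.6% of control mice, outside the plasma gate. In Iglv1 cells the share was 32.1% and 30.7% in KO mice and 38.9% and 33.3% in control mice. Iglc2, a lambda constant gene, had a UMI in 83.4% and 82.7% of Igkv cells in KO mice and in 84.0% and 94.5% in control mice, close to the 83.0% and 80.2% of KO Iglv1 cells. Iglc2 was thus detected in most cells of either class, while Igkc was detected mainly in Igkv cells.

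No family, counted over all members with the same number, passed the test. Igkv1 genes were top gene in 14.7% ± 0.433 of cells in KO mice and 15.7% ± 2.93 in control mice (SD, n = 2 each), and Igkv4, the largest family with 31 members, in 12.9% ± 1.21 in KO mice and 13.5% ± 0.149 in control mice. Igkv6 genes had 12.1% and 13.5% in KO mice against 11.1% and 10.9% in control mice. Of 20 families tested, edgeR called 0 (0%) and 2 had an unadjusted p under 0.05, Iglv3 (edgeR adjusted p = 0.0547) and Iglv1 (0.339). DESeq2 called Iglv2 and Iglv3.

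Most Igkv14-126 cells of KO mice carried Ighv11-2. Among Igkv14-126 cells with an assigned heavy V gene, Ighv11-2 was the partner in 86 of 94 and 55 of 74 in KO mice, against 0 of 1 and 1 of 2 in control mice. Of cells with other light genes, Ighv11-2 was found in 0.18% and 0.09% in KO mice and in 0 cells in control mice. Seen from the heavy chain, Igkv14-126 was the light gene of 94.5% of 91 and 94.8% of 58 Ighv11-2 cells in KO mice.

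This pair was the largest light and heavy combination in both KO mice, ahead of 15 and 12 cells for the next one. No pair passed 3 cells in either control mouse, but cells with both genes assigned numbered only 418 and 466 there. In KO mice they numbered 2913 and 3568. Of the cells with Igkv14-126 and Ighv11-2 in KO mice, 84 of 86 and 53 of 55 had Ighm, the IgM constant gene, as their leading heavy constant gene. With the cells of this pair left out, the log2 change of Igkv14-126 was 0.51 (edgeR adjusted p = 0.954). Whether the cells of a pair descend from 1 cell cannot be told from V genes alone.

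The other phosphatidylcholine pair was rare. Igkv4-91 was top gene in 18 and 20 cells of KO mice (0.560% and 0.514%), against 1 and 2 of control mice (0.206% and 0.388%), with a log2 change of 0.82 ± 0.42 (SE; edgeR adjusted p = 0.854). It was paired with Ighv12-3 in 3 and 3 cells of KO mice, against 1 and 0 cells of control mice. In KO mouse 1 most Ighv12-3 cells carried Igkv10-96 instead, 13 of 18, against 0 of 4 in KO mouse 2, and 0 of 2 and 1 of 4 in control mice. Another pair found mainly in KO mouse 1 was Iglv2 with Ighv9-3, in 13 cells, against 2 cells in KO mouse 2 and 1 and 0 in control mice.

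Light V usage differed between B-gate cells with and without Cd9, a tetraspanin of marginal zone and B1 cells. Cd9 was detected in 9.26% and 8.60% of B-gate cells in KO mice and in 17.7% and 11.2% in control mice, and in 10.7% and 11.6% of T-gate cells of KO mice and 14.8% and 12.1% of control mice, so that a Cd9 UMI was no more frequent in B-gate than in T-gate cells of KO mice and of control mouse 2. Macrophages express Cd9 (41.5% to 57.0% of macrophage-gate cells), and macrophage transcripts were higher in control B-gate cells, whose part in the Cd9 class was not tested. Of 78 light V genes, edgeR with mouse as a block called 2 (2.56% of those tested), both higher in Cd9-positive cells.

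Igkv14-126 was top gene in 18.8% and 12.3% of Cd9-positive cells, against 1.40% and 0.927% of Cd9-negative cells, in KO mice. In control mice it was top gene in 0 of 86 and 0 of 57 Cd9-positive cells, against 2 of 399 and 2 of 458 Cd9-negative cells. The log2 change was 3.52 ± 0.40 (SE; edgeR adjusted p = 2.01e-14). Without KO mouse 1 it was 2.99 with an adjusted p of 0.0711, and with cells of Igkv14-126 and Ighv11-2 left out it was -0.51 and not called (edgeR adjusted p = 0.964). The genotype by Cd9 interaction, which sets KO against control mice, was not called (edgeR adjusted p = 0.186), and it called 0 genes of 78 (0%; 8 at an unadjusted p under 0.05).

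Igkv12-89 was the other gene called, with 6 and 9 of the Cd9-positive cells of KO mice (2.01% and 2.69%), against 12 and 16 of the Cd9-negative cells (0.411% and 0.449%). In control mice there were 1 and 0 Cd9-positive cells, against 1 and 1 Cd9-negative cells. The log2 change was 2.33 ± 0.59 (SE; edgeR adjusted p = 0.00405), but DESeq2 gave an adjusted p of 0.991, and without KO mouse 1 or KO mouse 2 it was 0.846 and 0.70. Ighv1-55 was the heavy partner of 6 of 17 and 5 of 24 Igkv12-89 cells in KO mice, against 0 of 2 and 0 of 0 in control mice. Cd9-positive B-gate cells were also deeper, with median totals of 7419 and 7192 UMIs in KO mice, against 3201 and 3016 for Cd9-negative cells.

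**Figure D3:**
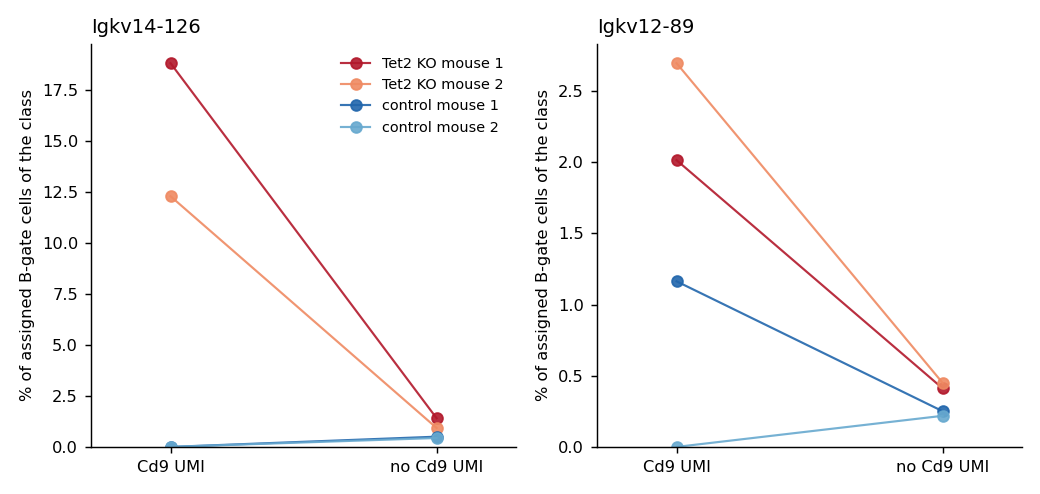
Share of assigned B-gate cells (percent, vertical axis) with Igkv14-126 (left) or Igkv12-89 (right) as top gene among cells with and without a Cd9 UMI, with a line per mouse. Igkv14-126 reaches 18.8% and 12.3% of Cd9-positive cells in the KO mice and 0% in both control mice.

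Igkv14-126 cells of KO mice had more of most marginal zone and B1-like transcripts and less of the follicular transcripts Ccr7 and Ighd. They were set against the other assigned B-gate cells within the KO mice, with UMIs summed per mouse and class and mouse as a block, in a comparison added after the usage was seen. Beside V genes, edgeR called 934 of 11609 genes, 509 higher and 425 lower, and over all 11794 genes tested 8.88% were called, 4.32% higher and 4.56% lower. The last shares include V genes, and light V genes other than Igkv14-126 are low in these cells by the choice of cells. Of the 8 genes of the marginal zone and B1-like list, 5 rose and 1 fell (median log2 change 1.76, against -0.06 over all genes).

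Fcrl5, an Fc receptor-like protein of innate-like B cells, was at 73.5 and 77.8 CPM in Igkv14-126 cells and at 7.72 and 6.83 in other cells of KO mice 1 and 2 (log2 change 3.37 ± 0.26, SE; edgeR adjusted p = 7.51e-10). Zbtb32, a repressor known from B1 and memory cells, rose by 3.18 ± 0.30 and Cd9 by 1.86 ± 0.21. Cd5, the surface marker of B1a cells, was at 42.4 and 29.4 in Igkv14-126 cells against 10.6 and 11.7 in other cells, and Bhlhe41, a regulator that B1a cells need, at 24.9 and 23.1 against 6.74 and 7.13 (edgeR adjusted p = 0.000387 and 0.00367).

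Cr2, the complement receptor CD21 of marginal zone and follicular cells, fell by 2.95 ± 0.35 on the log2 scale, with 6.23 and 6.31 CPM in Igkv14-126 cells against 47.2 and 50.4 in other cells. Dtx1 and Myof, the other list members, were not called. Ccr7, a chemokine receptor of follicular cells, and Ighd, the IgD constant gene, fell by 0.53 and 0.97 on the log2 scale. Cells with an Ighd UMI were nonetheless 50.5% and 55.4% of Igkv14-126 cells in KO mice, against 56.6% and 55.2% of other cells. Fcer2a, the follicular marker CD23, was at 29.9 and 79.9 in Igkv14-126 cells against 270 and 266 in other cells and missed the threshold (edgeR adjusted p = 0.0853).

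Of genes outside the marginal zone and B1-like and follicular lists, the smallest p among those that rose were of Sox5 (log2 change 3.30), a transcription factor, Cd300lf (3.24), an inhibitory receptor, Mzb1 (1.32), a chaperone of IgM assembly, Ahr (2.54), the aryl hydrocarbon receptor, Zcwpw1 (3.58), Camk2n1 (3.62), Cacna1e (2.37), Plac8 (1.36) and Actn1 (2.88). Mzb1 is also on the plasma list, of whose 6 genes 2 rose and 0 fell, Mzb1 and Prdm1, a plasma cell transcription factor. Of the Igkv14-126 cells, 4 and 1 were also in the plasma gate. With cells in both gates left out, Mzb1 was at 889 and 942 CPM in Igkv14-126 cells against 335 and 342 in other cells (log2 change 1.43 ± 0.09, SE; edgeR adjusted p = 2.18e-09), and Prdm1 was also still called (1.95, adjusted p = 0.00465). Those that fell were led by Cd74 (-0.53), the class II invariant chain, Stk17b (-1.28), Mef2c (-1.39), a transcription factor of B cell activation, Vps37b (-1.70), Gpr183 (-1.96), the receptor that guides B cells to the follicle border, Fth1 (-0.73), Nr4a1 (-0.97), Neurl3 (-1.96) and H3f3a (-0.66). C1qa, a macrophage gene, was at 0 in Igkv14-126 cells of both mice, against 70.8 and 56.4 CPM in other B-gate cells. Igkv14-126 cells were also deeper, with median totals of 7163 and 5574 UMIs, against 3272 and 3083. Cd9 had a UMI in 57.7% and 55.4% of them, against 7.76% and 7.67% of other cells.

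**Figure D4:**
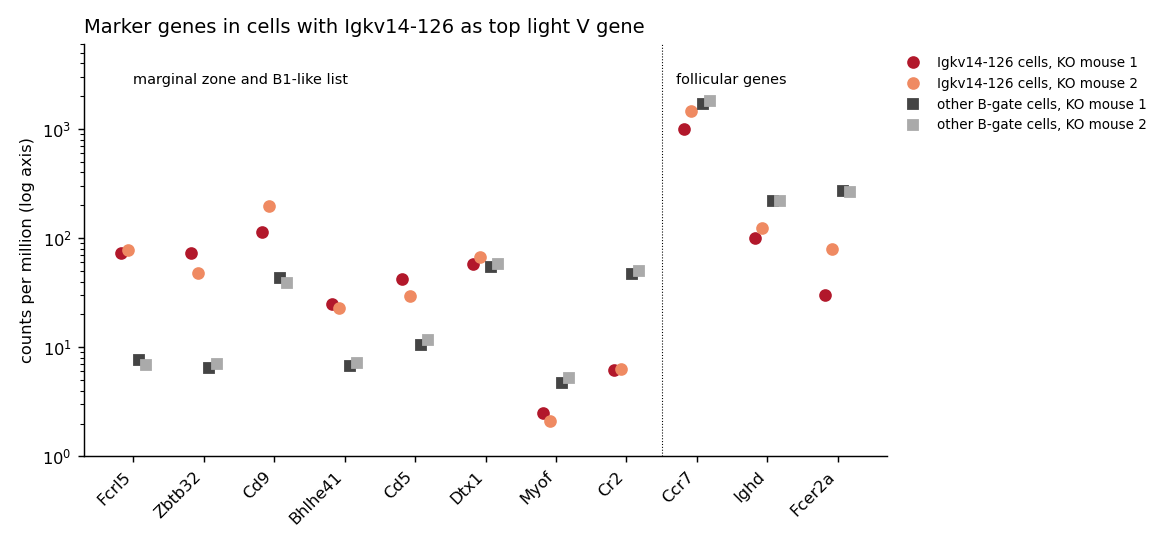
CPM (log axis) of the marginal zone and B1-like list and of 3 follicular genes in Igkv14-126 cells (circles) and other assigned B-gate cells (squares) of KO mice 1 and 2. Fcrl5, Zbtb32, Cd9, Bhlhe41 and Cd5 lie higher in Igkv14-126 cells of both mice, and Cr2, Ccr7, Ighd and Fcer2a lie lower.

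Plasma-gate cells were few, 39 and 39 in KO mice and 64 and 32 in control mice, and all were assigned. Their top gene held a median of 6239 and 2695 UMIs in KO mice and 4960 and 5046 in control mice. Of the 111 genes, 52 were top gene in some plasma-gate cell and 3 in all 4 mice. The most used gene differed in every mouse: Igkv14-126 in KO mouse 1 (5 cells, 12.8%), Igkv14-111 in KO mouse 2 (3 cells, 7.69%), Iglv1 in control mouse 1 (15 cells, 23.4%) and Igkv3-12 in control mouse 2 (4 cells, 12.5%).

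Only Iglv1 and Igkv1-110 reached 10 plasma-gate cells, and edgeR called neither (0% of those tested). Iglv1 had 1 and 2 cells in KO mice (2.56% and 5.13%) against 15 and 3 in control mice (23.4% and 9.38%), and Igkv1-110 had 0 and 1 in KO mice against 7 and 3 in control mice. With no minimum, 52 genes were tested and 0 were called (0%), and 3 had an unadjusted p under 0.05. They were Igkv14-126 (5 and 2 cells in KO mice, 0 and 0 in control mice), Igkv6-17 (3 and 2 against 0 and 0) and Igkv6-32 (3 and 1 against 0 and 0). All 3 were tested only through the KO mice and are not counted as rises. Igkv4-91 and Iglv2 were top gene in no plasma-gate cell, and Iglv3 in 1, in KO mouse 2. Transcripts of Igkv4-91 and Iglv2 were found there, always below another light V gene of the same cell. Igkv4-91 had 7372 UMIs in 1 cell of KO mouse 2 and 5370 over 6 cells of control mouse 2. Iglv2 had 8097 over 11 cells of KO mouse 1. A count of 0 top-gene cells allows a share of such cells of up to 7.69% with 39 cells, 4.69% with 64 and 9.38% with 32.

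Repeated pairs made up much of the plasma gate in some mice. All 5 and 2 Igkv14-126 plasma-gate cells of KO mice had Ighv11-2 and Ighm, and 4 and 1 of the Igkv14-126 cells in the B gate were also in the plasma gate. In control mouse 1, Iglv1 went with Ighv2-9-1 in 7 cells and with Ighv1-55 in 6, and Igkv1-110 with Ighv3-6 in 6, and 5, 6 and 6 of these had Igha, the IgA constant gene. Cells in pairs seen more than once were 28.2% and 15.8% of cells with both genes in KO mice, against 48.4% and 6.25% in control mice. Igha led in 20 and 18 plasma-gate cells of KO mice and in 52 and 17 of control mice, and Ighm in 13 and 12 of KO mice and in 5 and 3 of control mice.

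The effective number of genes in the plasma gate was 21.8 and 67.4 in KO mice against 13.8 and 27.6 in control mice (exact two-sided permutation p = 0.667). The value of KO mouse 2 is above its 39 cells and the 29 genes seen there, since few of its cells shared a gene, so it is imprecise. Cells also in the B gate were 20 of 39 and 22 of 39 plasma-gate cells in KO mice, against 11 of 64 and 7 of 32 in control mice. Cd79b was at 285 and 499 CPM in the plasma gate of KO mice, against 159.7 and 237 in control mice. Without the cells in both gates the effective number was 34.2 and 45.3 in KO mice, against 11.4 and 33.3 in control mice, with no overlap (exact permutation p = 0.333). Fewer than 20 plasma-gate cells were then left in either KO mouse, so these values rest on few cells that share a gene. With cells in both gates kept, 13.5 and 17.3 different genes are expected in 20 plasma-gate cells of KO mice. In control mice 13.3 and 14.6 are expected, with overlap (exact permutation p = 0.667). Lambda genes were top gene in 2.56% and 7.69% of plasma-gate cells of KO mice, against 23.4% and 9.38% of control mice (exact permutation p = 0.333). The difference was -11.3 percentage points, and without control mouse 1, where Iglv1 was most used, it was -4.25.

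Set against B-gate cells outside the plasma gate, plasma-gate cells showed 0 of 78 genes called by edgeR with mouse as a block (0%; 3 at an unadjusted p under 0.05), and 0 by DESeq2. Igkv1-135 was top gene in 0, 0, 1 and 0 plasma-gate cells of KO mice 1 and 2 and control mice 1 and 2, against 145, 158, 28 and 25 B-gate cells (log2 change -3.17 ± 1.28, SE; edgeR adjusted p = 0.766), and only TMM factors made it a call (-4.43, adjusted p = 0.00309). Iglv1 changed by 1.27 (adjusted p = 0.766), or by -0.05 with TMM factors. The genotype by gate interaction called 0 of 78 genes (0%; 2 at an unadjusted p under 0.05).

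Summed UMIs weight cells by their transcript number. Cells in both gates, 20 and 22 in KO mice and 11 and 7 in control mice, held 55.8% and 36.6% of all light V UMIs of the B gate in KO mice, and 82.3% and 75.5% in control mice. In the B-gate sums edgeR called 28 of 12164 genes (0.23% of those tested, 0.0164% up and 0.214% down), among them 1 of 103 light V genes, Igkv1-117, at 1060 and 1223 CPM in KO mice against 366 and 347 in control mice (log2 change 1.68 ± 0.15, SE; adjusted p = 0.0408). Without cells in both gates its log2 change was 0.74 and it was no longer called (adjusted p = 0.0799).

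In those sums without both-gate cells, 4 of 102 light V genes were called higher and 0 lower, against 0.596% called over all 12072 genes (0.0828% up and 0.514% down). The median log2 change of the light V genes was 0.64, against -0.01 over all genes. Of the 102, 19 had a mouse with no UMI, and genes kept in the fit through the KO mice are part of this median. The shift is therefore not read as a rise of the set. Of the 102, 44 had an unadjusted p under 0.05 with edgeR. The called genes were not tested apart from that shift. One of the 4, Igkv12-38, had 148 and 154 UMIs in KO mice and 0 in both control mice, so it was tested only through the KO mice and is not counted as a rise. The other 3 were Igkv14-126, Igkv8-19 and Igkv5-43. Igkv14-126 was at 490 and 303 CPM in KO mice against 26.0 and 38.6 in control mice (log2 change 3.62 ± 0.33, SE; edgeR adjusted p = 0.0326). Igkv8-19 had 102 and 69.2 in KO mice against 23.7 and 20.9 in control mice, and Igkv5-43 had 80.9 and 103 in KO mice against 35.6 and 34.3 in control mice. Few control cells lie behind these values. Igkv8-19 was top gene in 31 and 27 such cells of KO mice against 1 and 2 of control mice, and Igkv5-43 in 52 and 61 against 4 and 5. Each also has a close paralog, Igkv8-28 (97.7% identical) and Igkv5-45 (96.9%), so their separate counts are uncertain.

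In plasma-gate sums, edgeR called 25 of 5784 genes (0.432%, with 0.104% up and 0.328% down) and 0 of 44 light V genes tested (4 at an unadjusted p under 0.05), where DESeq2 called 7. Of the fixed list of 30 light chain and B cell factor genes, 20 were tested in the B-gate sums and 17 in the plasma-gate sums, and edgeR called 0 in either (8 and 5 at an unadjusted p under 0.05). Igkc was at 1815 and 1563 CPM in B-gate sums of KO mice against 5028 and 3123 in control mice (log2 change -1.27 ± 0.24, SE; edgeR adjusted p = 0.0868). Without both-gate cells it was at 998 and 1027 in KO mice against 949 and 798 in control mice (log2 change 0.21).

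Second light V genes were common at low level. Among B-gate cells outside the plasma gate whose top gene had at least 10 UMIs, 29.9% and 31.3% in KO mice and 32.5% and 27.2% in control mice had a second gene with at least 10% of the light V UMIs. The second gene was the most similar paralog of the top gene in 2.96% and 2.31% of these cells in KO mice and in 5.83% and 8.41% in control mice. The leading combination was Iglv2 with Iglv1, in 26 of 104 Iglv2 cells, against 1.61% of cells with another top gene. Iglv1 and Iglv2 are 86.7% identical over their whole annotated transcripts, where bases that either transcript lacks count as differences. Whether reads were split between these copies was not tested. Of the 111 genes, 19 have a paralog at least 95% identical, such as Igkv1-110 and Igkv1-117 at 96.8%, so that their separate counts are uncertain.

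Free light chain RNA was measured in cells that should lack it. Light V UMIs were found in 8.92% and 3.89% of T-gate cells of KO mice, against 5.63% and 5.17% of control mice, with median depths of 4400 and 4265 UMIs against 3925 and 3625. Only 46 of 7682 T-gate cells had a top gene with at least 2 UMIs. KO mouse 1 differed most in Igkv3-5, which had a UMI in 127 of 2432 T-gate cells (5.22%, exact 95% interval 4.37% to 6.18%), against 0.0422% in KO mouse 2, and 0% and 0.189% in control mice. Igkv14-126 had a UMI in 0.576% and 0.169% of T-gate cells of KO mice, against 0.154% and 0.189% of control mice. Igkv6-32 had one in 0.411% and 0.0845% of T-gate cells of KO mice, against 0.0772% and 0.0631% of control mice.

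Igkv3-5, singled out after its values were seen, was found in a larger share of barcodes in KO mouse 1 than in the other mice. It had a UMI in 6.30% of barcodes there, against 0.766% in KO mouse 2, and 0.144% and 0.202% in control mice. In B-gate cells with another top gene it was found in 5.73% and 0.519% in KO mice, against 0.417% and 0.390% in control mice. The highest count in a barcode of KO mouse 1 was 60 UMIs, and there Igkv3-5 was top gene of 0 plasma-gate cells and of 26 B-gate cells. As a top gene it had 26 and 38 cells in KO mice, against 5 and 2 in control mice.

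Along the Igk locus, use was spread over 3166 kb, and the sets by distance overlapped between the genotypes. Kappa genes were split by rank of distance from the J segments into 3 sets of 36. The set nearest to J held 31.0% and 32.9% of kappa B-gate cells in KO mice against 30.1% and 31.5% in control mice, the middle set a mean of 24.1% ± 1.67 in KO mice against 25.3% ± 3.22 in control mice (SD, n = 2 each), and the farthest set 46.1% and 41.9% in KO mice against 46.9% and 41.0% in control mice. Groups overlapped in all 3 sets (exact two-sided permutation p = 0.667, 0.667 and 1). Genes in the same orientation as J, which join by deletion, number 42, and held 47.3% and 46.1% of kappa cells in KO mice and 50.2% and 44.5% in control mice. The other 66, which join by inversion, had a lower median share per functional gene, 0.490% against 0.866%, as a description.

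**Figure D5:**
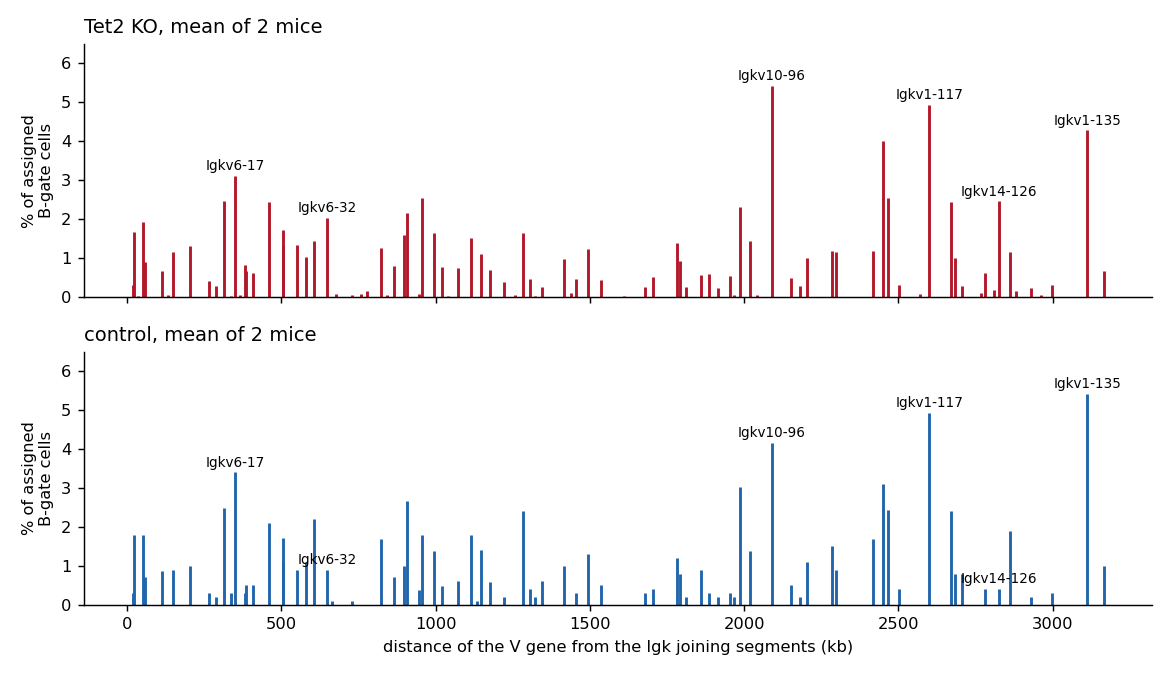
Mean share of assigned B-gate cells (percent, vertical axis) of each kappa V gene against its distance from the Igk joining segments in kilobases, for KO mice (top) and control mice (bottom). Igkv14-126, at 2826 kb, is at 2.46% in KO mice and 0.400% in control mice, while Igkv1-117 is at 4.94% in KO mice and 4.93% in control mice.

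By recombination signal, the 93 genes with the heptamer CACAGTG held 81.3% and 84.0% of kappa B-gate cells in KO mice and 87.9% and 82.9% in control mice, and the 15 with another heptamer, Igkv10-96 and Igkv14-126 among them, held the rest. The nonamer ACAAAAACC, carried by 38 genes, was behind 24.9% and 27.0% of cells in KO mice and 26.8% and 28.4% in control mice. The nonamer ACATAAACC, carried by 26 genes with Igkv14-126 and Igkv10-96 among them, was behind 34.4% and 33.1% in KO mice, against 28.6% and 30.2% in control mice. Both KO mice lay above both control mice there, as a description with no test. Several sets were compared, and with so few mice such a separation is not rare by chance. In the plasma gate the same nonamer was behind 39.5% and 52.8% of kappa cells in KO mice, against 30.6% and 20.7% in control mice. Few cells lie behind these shares: Igkv14-126 was top gene in 5 and 2 plasma-gate cells of KO mice, against 0 and 0 in control mice. Igkv10-96 was top gene in 4 and 1, against 1 and 3. Of the KO plasma-gate cells, 20 of 39 and 22 of 39 were also in the B gate. The octamer ATTTGCAT, or ATGCAAAT on the other strand, which binds the Pou2f factors that drive immunoglobulin genes, lies in the window from 250 bases before to 50 after the annotated start in 83 of the 111 genes (74.8%), against 1.97% of 1776 protein-coding windows on chromosomes 6 and 16. Igkv1-117, Igkv1-110 and Igkv6-32, all well used, have no exact match in that window.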

How the data were processed

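The deposited matrices of 4 libraries hold UMI counts per gene and cell, made by the authors with Cell Ranger 8.0.1 on GRCm39; Seurat 5.0.1 and R 4.4.1 are also named, per the submitters' processing notes. T cell receptor libraries were not used here. A barcode was used when it had 200 genes or more and no more than 10% of its UMIs were mitochondrial, and doublets were removed with Scrublet in scanpy 1.11.5. The members and lists were chosen with earlier results of these data known. Named were the 15 leading genes per gate, genes called, fixed genes (the lambda genes, Igkv14-126 and Igkv4-91) and the most used plasma-gate gene of each mouse. Others, such as Igkv3-5, Igkv6-32 and the heavy V partners of Igkv12-89 and Iglv2, were named after their values were seen.

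Numbers of cells per mouse and top gene were tested with edgeR 4.0.16 (quasi-likelihood, robust; assigned cells as library size, at least 10 cells per gene), and UMI counts summed per mouse likewise with TMM factors. P-values were adjusted by Benjamini-Hochberg over all genes tested. Single shares were compared by exact permutation over mice. DESeq2 1.42.0, other cell filters, thinning, a replicate block and leaving out each mouse were alternatives. Intervals are exact (Clopper-Pearson, 95%), floors are 3 counts, and both cover counting error only. Recombination signals and gene types came from GRCm39 and its GENCODE annotation, in which all 163 features matched by gene ID. Scripts were tested on simulated data. Some marker genes are not reported here.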

Additional observations from a re-analysis of the deposited data

Results flagged for a closer look

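Igkv3-5 had a UMI in 5.22% of T-gate cells and 5.82% of macrophage-gate cells of KO mouse 1, cells outside the usage comparisons. The lower bounds of the exact 95% intervals, 4.37% and 4.60%, lay above the upper bounds of both control mice, which were 0.284% and 0.552% in the T gate and 0.0556% and 0.173% in the macrophage gate. In KO mouse 2 the shares were 0.0422% and 0%. The search covered a chosen set of light V genes and looked only for KO mice above both control mice. The other direction also occurred: Iglv1 was in 1.23% of T-gate cells of control mouse 1 (interval 0.707% to 2.00%). Its upper bounds in KO mice were 0.229% and 0.492%. Igkv19-93, outside that set, held 506 of the 958 light V UMIs in macrophage-gate cells of control mouse 1.

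In macrophage-gate cells of KO mouse 1, Igkv14-126 and Igkv6-32 each had a UMI in 6 of 1272 cells (0.472%, interval 0.173% to 1.02%). In KO mouse 2 Igkv14-126 was found in 0.137% of such cells (interval 0.0165% to 0.492%) and Igkv6-32 in 0.0683%. In control mice Igkv14-126 was found in 0.0452% and 0.0397% of such cells, and Igkv6-32 in 0.0452% and 0.053%. Igkv14-126 also had the most UMIs of a light V gene in B-gate sums of that mouse, 59912, against 18242 in KO mouse 2, and 57 and 72 in control mice. In KO mice these sums include 4 and 1 Igkv14-126 cells that were also in the plasma gate. Cells in both gates held 55.8% and 36.6% of all light V UMIs of the B gate there. The sums therefore do not measure how many B-gate cells used the gene.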

How the results depend on the processing

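Of 186 alternative values of counts and shares, 144 stayed close and 42 moved, and of 187 values of named genes 153 kept direction and call, 7 lost a call, 22 gained one and 5 reversed. The cause was not tested. For B-gate usage (0 called) the count was 1 with a top gene of at least 80% of light V UMIs, 2 with doublets kept, 3 without cells with Cd3e, Csf1r, S100a8 or Nkg7, 2 without cells in both gates, 2 without barcodes found in several mice, and 0 to 3 leaving out a mouse. For families (0) it was 1 with TMM factors, 2 with DESeq2, 1 with no filter and 0 to 2 leaving out a mouse. For plasma over B gate (0), TMM factors gave 1, and Iglv1 reversed to -0.055. For Cd9 (2), DESeq2 gave 1, leaving out Igkv14-126 with Ighv11-2 gave 1, with Igkv14-126 at -0.51, and leaving out a mouse gave 0 to 2.

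For light V genes in summed B-gate UMIs (1 called), the count was 21 with DESeq2, 6 with library size only, 20 with no filter, 17 with doublets kept, 4 without cells in both gates and 1 to 33 leaving out a mouse. For plasma-gate sums (0) it was 7, 3 and 5 in the first 3 of these and 8 to 15 leaving out a mouse. Iglv3 in B-gate sums (0.11) was -0.90 without cells in both gates and -0.78 to 0.72 leaving out a KO mouse. The difference in the set of kappa genes nearest to J (1.12 points) was -0.39 with thinned cells, and that in the median top-gene share (-0.99 points) was 0 with the 80% minimum and -1.98 to 0 leaving out a mouse.

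The labels name no pairing or batch for mice with the same number. The deviations of such mice correlated at -0.09 over 78 genes of B-gate usage, which with so few mice cannot show whether a batch was shared. With the replicate block, 2 genes were called in B-gate usage (Igkv14-126 and Iglv3), 1 family (Iglv3), 6 light V genes in B-gate sums and 4 in plasma-gate sums, and Iglv3 in B-gate sums was at -0.074. Plasma-gate usage could not be fitted with DESeq2, with pairs counted once or without control mouse 1. Only 485 and 515 assigned B-gate cells per control mouse and 32 to 64 plasma-gate cells per mouse limit what could be detected.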
